A study of Mus musculus with 60 samples.

Results

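The genes described here encode the proteins of the cytosolic ribosome, measured in organoids grown from mouse duodenum. They were chosen by symbol alone: names of the form Rpl or Rps followed by a number, with the usual suffixes, plus Rpsa, Rplp0, Rplp1 and Rplp2, leaving out pseudogenes and the Rps6k kinases. The rule found 83 genes, 51 of the large and 32 of the small subunit, among 24905 genes that had values in all 13 comparisons (the table has 41018 rows).

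Ribosomal protein genes are among the most strongly transcribed genes of a cell. Their products are needed in equal numbers, so their mRNAs are usually kept at matched levels. The mRNAs begin with a C followed by a run of pyrimidines at the cap, the TOP motif, through which mTORC1 and the RNA-binding protein LARP1 set their translation and stability. In the intestine, crypt cells that divide rapidly have a high demand for ribosomes.

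The study targeted CDK2, a kinase of the cell cycle, or CDK5, a related kinase studied mostly in neurons. In the degron arm, CDK2-dTAG, CDK5-dTAG and WT-dTAG organoids were kept with 250 nM dTAG-13 or with DMSO for 6 or 24 h. By the sample titles the WT-dTAG organoids came from WT mice, and whether they carry a tag is not stated. The molecule dTAG-13 brings a tagged protein to a ubiquitin ligase, and both wild types received the same agent as the engineered line of their arm. In the knockout arm, CDK2-cKO and WT-cKO organoids were kept with 1 uM 4-OHT or with DMSO for 24 or 48 h. 4-OHT is 4-hydroxytamoxifen, which activates Cre recombinases fused to a modified estrogen receptor. Neither the Cre driver nor the deleted exons are stated in the labels. By the labels each of the 20 groups had 3 replicates, 60 samples in all, and nothing says that these were separate animals or cultures, so p-values may measure technical spread. The RNA was read by QuantSeq, which tags the end of the mRNA next to the poly(A) tail. In bulk RNA, fewer cells of a type and less RNA per cell cannot be told apart.

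The values are log2 fold changes from the authors' deposited table of 13 comparisons: 10 of an agent against DMSO and 3 of a later against an earlier time of DMSO. Single samples were not analysed here, so no level or depth can be given, and the error of a value was derived from its own p-value (the implied standard error, SE). Genes with a median SE of at most 0.5 over the 13 comparisons are called well measured. This held for 9526 genes and for 79 of the 83 ribosomal protein genes, 47 of the large and 32 of the small subunit. The exceptions were Rpl10, Rpl39l, Rpl3l and Rpl10l. The median SE of the 79 members was between 0.199 and 0.222 in each comparison, and it was 0.222 in both comparisons that use the CDK2-dTAG DMSO group at 6 h. A member's SE was there 1.12 times that with dTAG-13 at 24 h in CDK2-dTAG (median over the 79). The number of libraries in each of the authors' fits is not stated, so whether all 3 replicates of that group entered is unknown. Intestinal epithelium markers were well measured in 10 of 10 cases, and markers of other cell types in 1 of 10.

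The targeted mRNA was checked first. In the authors' deposited table Cdk2 stood at -0.35 (p = 0.103) and -0.64 (p = 0.00456) with 4-OHT at 24 and 48 h in CDK2-cKO organoids, and at 0.26 (p = 0.216) and -0.53 (p = 0.0125) in WT-cKO organoids, with FDR p-values of 0.990 or above. The values at 48 h were thus of like size in both lines. With dTAG-13 at 24 h in CDK2-dTAG organoids Cdk2 was listed at 0.16 in the authors' deposited table, where the degrader acts on the protein and the mRNA checks nothing.

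No ribosomal protein gene passed an FDR p of 0.05 in any of the 13 comparisons of the authors' deposited table. The background was nearly as empty. The percentage of all genes past that limit was 0 in 9 comparisons, 0.0241% with 4-OHT at 48 h in CDK2-cKO, 0.0642% with 4-OHT at 24 h in WT-cKO, 0.0361% for DMSO 24 h against 6 h in CDK2-dTAG and 0.0803% for the same times in WT-dTAG. At an unadjusted p under 0.05, 3 values were reached among the 83 members: Rpl10 with dTAG-13 at 24 h in CDK2-dTAG, Rps27 with dTAG-13 at 24 h in CDK5-dTAG and Rpl39l with 4-OHT at 24 h in WT-cKO. The same limit was met by 0.903% and 1.07% of all genes in CDK2-dTAG at 6 and 24 h, by 0.952% and 1.99% in CDK5-dTAG and by 0.799% and 1.08% in WT-dTAG. It was met by 1.3% and 2.21% in CDK2-cKO at 24 and 48 h, by 2.98% and 1.83% in WT-cKO, and by 2.72%, 3.28% and 1.42% in the DMSO time comparisons of CDK2-dTAG, WT-dTAG and WT-cKO. What follows describes small values that lie side by side across the family, and no single gene is called.

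In 3 of the 4 comparisons of an agent in CDK2 lines, those at 24 h of dTAG-13 and at 24 and 48 h of 4-OHT, every well measured ribosomal protein gene stood slightly below DMSO. With dTAG-13 at 24 h in CDK2-dTAG organoids, the 79 members had a median log2 fold change of -0.13 (-8.64%), with quartiles of -0.18 and -0.10. All 79 were below 0, against 48.5% of the well measured genes. With 4-OHT in CDK2-cKO organoids, the median was -0.15 (-10.1%) at 24 h and -0.10 (-6.82%) at 48 h. All 79 were again below 0 at both times, against 52.7% and 53.1% of well measured genes. These 3 comparisons share no library by the labels, and 79 of 79 members were below 0 in all of them, against 2036 of 9526 well measured genes (21.4%). The members of one comparison share their libraries and are not replicates of each other.

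**Figure D1:**
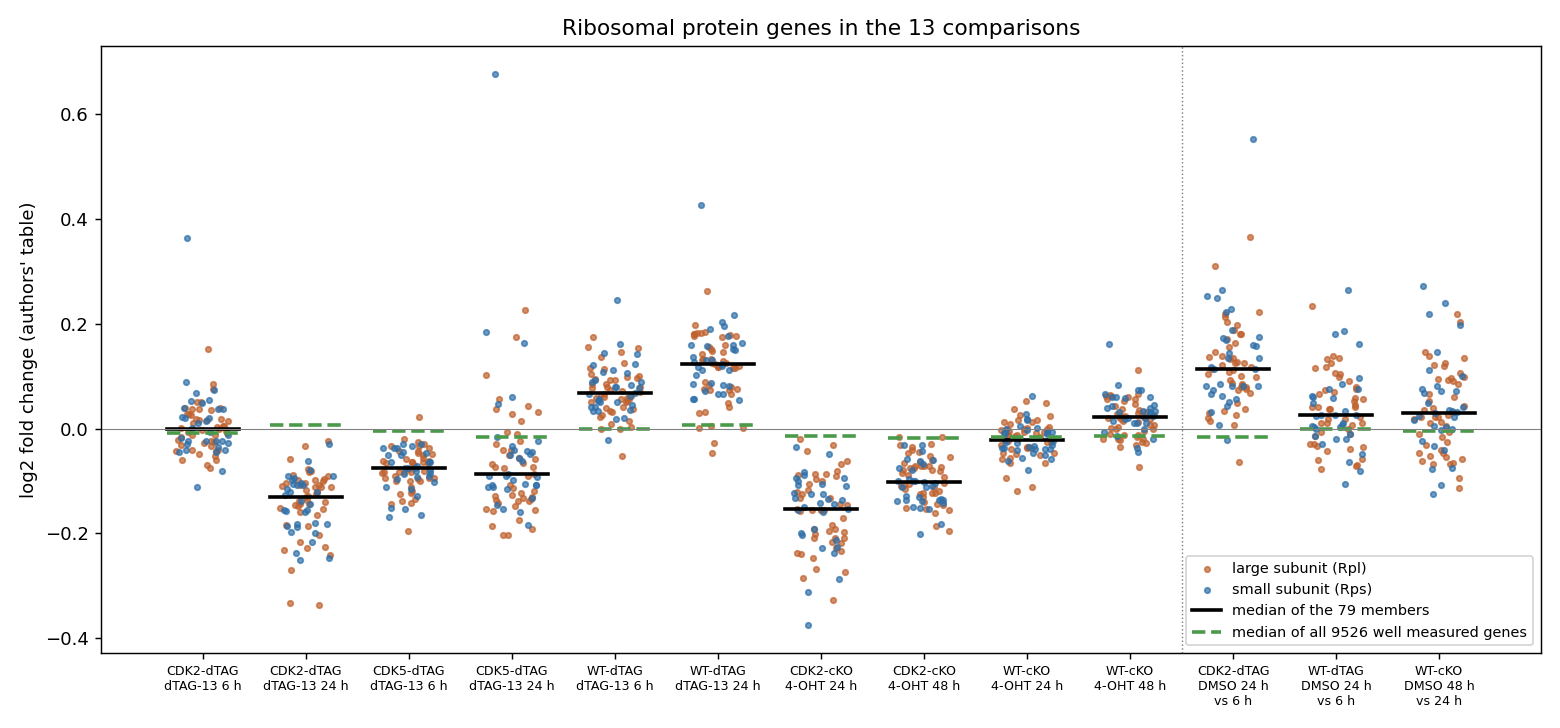
Log2 fold change of each of the 79 well measured ribosomal protein genes (points, orange for the large and blue for the small subunit) in the 13 comparisons of the authors' deposited table, with the median of the members (black line) and of all 9526 well measured genes (dashed green line). All points are below 0 in CDK2-dTAG at 24 h and in CDK2-cKO at 24 and 48 h, and the green lines lie between -0.02 and 0.01 throughout.

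Both subunits gave the same picture. With dTAG-13 at 24 h in CDK2-dTAG the median was -0.13 in the large and -0.14 in the small subunit. With 4-OHT in CDK2-cKO it was -0.15 and -0.14 at 24 h, and -0.09 and -0.11 at 48 h. The spread over the members was narrow: their SD ran from 0.034 to 0.123 over the 13 comparisons, below the median SE of a member in each.

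At 6 h of dTAG-13 in CDK2-dTAG organoids the members were split around 0, with 39 above and 40 below and a median of -0.00, against 52.1% of well measured genes below 0. Rps27, a zinc-finger protein of the small subunit, was the highest at 0.36 in the authors' deposited table, followed by Rpl22l1 at 0.15 and Rps21 at 0.09. Rps12 was the lowest at -0.11 in the authors' deposited table, then Rps27a at -0.08 and Rpl4 at -0.07.

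The lowest members with dTAG-13 at 24 h in CDK2-dTAG encode large-subunit proteins. Rpl9 stood at -0.34 (SE 0.344, 95% interval -1.01 to 0.34), Rpl35 at -0.33 (SE 0.190, -0.70 to 0.04) and Rpl17 at -0.27 in the authors' deposited table. Rpl35 and Rpl17 sit at the exit tunnel through which the new protein chain leaves the large subunit. The authors' deposited table gives Rpl35 p = 0.0796 and FDR p = 0.996, the smallest unadjusted value of the well measured members there. At the other end of the authors' deposited table were Rpl6 at -0.02 (SE 0.133, -0.28 to 0.24), Rps4x at -0.03 and Rpl29 at -0.03. Rpl6 and Rps4x are also among the most precisely measured members of their subunits, and the intervals of all 6 genes overlap.

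The starts of 6 genes are shown, since the TOP motif lies at the transcription start and these members mark both ends of the range: the 3 most and the 3 least negative members with dTAG-13 at 24 h in CDK2-dTAG, among the 50 well measured members that have 1 promoter in the RefSeq table. Each line runs from 80 bases before to 20 bases after the start on the gene's strand (RefSeq, GRCm38.p6). Capitals mark CCGGAAG on either strand (an ETS-type motif), AAGATGG on either strand (YY1-type), CTCTTTC on the gene's strand, and runs of 8 or more pyrimidines, and these may overlap.
Rpl9, chr5:65391412-65391511, minus strand: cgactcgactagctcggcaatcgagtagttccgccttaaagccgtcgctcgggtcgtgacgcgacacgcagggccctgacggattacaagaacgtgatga
Rpl35, chr2:39005112-39005211, minus strand: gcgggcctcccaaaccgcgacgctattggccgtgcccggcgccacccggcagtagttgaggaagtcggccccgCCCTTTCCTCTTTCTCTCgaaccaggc
Rps18, chr17:33955646-33955745, minus strand: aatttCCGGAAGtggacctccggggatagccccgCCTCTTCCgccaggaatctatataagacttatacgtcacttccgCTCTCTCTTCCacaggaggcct
Rpl27, chr11:101442165-101442264, plus strand: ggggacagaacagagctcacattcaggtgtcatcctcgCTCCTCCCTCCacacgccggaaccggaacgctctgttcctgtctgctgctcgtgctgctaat
Rps4x, chrX:102189372-102189471, minus strand: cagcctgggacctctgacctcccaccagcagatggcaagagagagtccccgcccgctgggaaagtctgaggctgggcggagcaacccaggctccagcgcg
Rpl6, chr5:121204421-121204520, plus strand: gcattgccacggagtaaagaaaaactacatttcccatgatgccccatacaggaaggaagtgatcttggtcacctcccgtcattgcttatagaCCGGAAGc
Rpl35 and Rps18 carry a long pyrimidine run at or beside the start, while Rpl27 carries one only upstream of it and Rpl9 and Rps4x show none of these letters in the window.

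Over the family, 63 of the 83 members matched a RefSeq promoter, with 75 windows of 250 bases before to 50 after the start. CCGGAAG on either strand was found in 36% of the members' windows, against 8.86% of all 32851 windows of the same length. CTCTTTC on the gene's strand was found in 20% against 3.99%, AAGATGG on either strand in 16% against 6.34%, and the E-box CACGTG in 10.7% against 7.15%. A C at the start followed by 4 pyrimidines was found in 17.3% against 2.51%. A run of 8 or more pyrimidines within 10 bases of the start was found in 40% against 14%. These starts are the annotated ones, and how they match the mRNA ends in these organoids was not tested. A window without the run thus does not show that the member lacks the TOP motif. The 29 well measured members with such a run and the 30 without one had medians of -0.13 and -0.14 with dTAG-13 at 24 h in CDK2-dTAG, -0.15 and -0.17 with 4-OHT at 24 h in CDK2-cKO, 0.12 and 0.12 with dTAG-13 at 24 h in WT-dTAG, and -0.05 and -0.09 with dTAG-13 at 24 h in CDK5-dTAG.

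In CDK2-cKO organoids the lowest members with 4-OHT at 24 h were Rps14 at -0.38 (SE 0.378, 95% interval -1.12 to 0.36), Rpl41 at -0.33 (SE 0.342) and Rps18 at -0.31 (SE 0.319) in the authors' deposited table. Rps14 is a small-subunit protein whose single-copy loss marks the human 5q- syndrome, and Rpl41 is a very short peptide between the subunits. The highest were Rpl30 at -0.02, Rpl28 at -0.03 and Rps27 at -0.03 in the authors' deposited table. By 48 h Rps27 was among the lowest of the authors' deposited table at -0.20, with Rpl35a at -0.20 and Rpl9 at -0.19, and the least negative were Rpl27 at -0.02, Rpl7a at -0.02 and Rpl11 at -0.03.

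The order of the members was partly alike in the CDK2-dTAG and CDK2-cKO organoids at 24 h. Across the 79 members, the values with dTAG-13 at 24 h in CDK2-dTAG and with 4-OHT at 24 h in CDK2-cKO had a Spearman correlation of 0.58 and a Pearson correlation of 0.52. Over all well measured genes the Spearman correlation was 0.29. Between CDK2-dTAG at 24 h and CDK2-cKO at 48 h it was 0.33 over the members and 0.17 over all well measured genes, and between both times of CDK2-cKO it was 0.26 and 0.23. In both comparisons at 24 h the less precise members were also the lower ones. The Spearman correlation of the log2 fold change with the median SE was -0.58 in CDK2-dTAG and -0.74 in CDK2-cKO. Such a tie was not particular to these comparisons. With dTAG-13 at 6 h it was -0.61 in CDK5-dTAG, 0.50 in WT-dTAG and 0.53 in CDK2-dTAG. In WT-cKO it was weak, at -0.12 with 4-OHT at 24 h and 0.11 for DMSO 48 h against 24 h. These are descriptions over genes that share libraries, abundance and counting error.

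**Figure D2:**
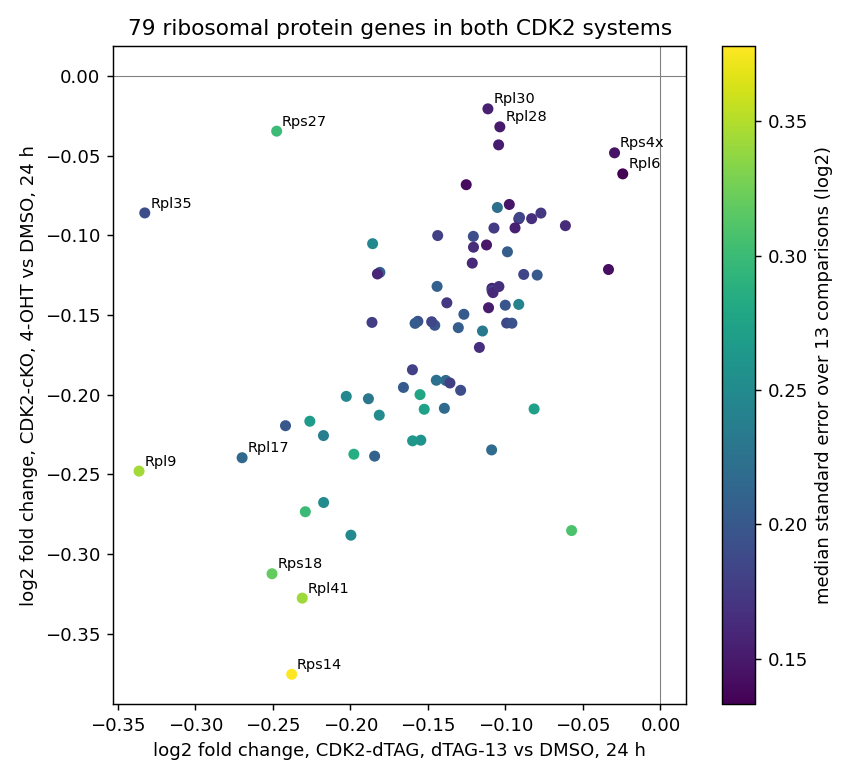
Log2 fold change of each of the 79 well measured ribosomal protein genes with dTAG-13 at 24 h in CDK2-dTAG (x axis) and with 4-OHT at 24 h in CDK2-cKO organoids (y axis), coloured by the gene's median standard error. Every point lies below 0 on both axes, and the points nearest to 0 on both, such as Rpl6 and Rps4x, have the smallest standard errors.

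Members with known single roles followed the family. Rps6, the substrate of the S6 kinases, stood at -0.10, -0.13 and -0.10 in CDK2-dTAG at 24 h and in CDK2-cKO at 24 and 48 h in the authors' deposited table. Rps19, the gene most often mutated in human Diamond-Blackfan anaemia, stood at -0.12, -0.10 and -0.15 there in the authors' deposited table. Rpsa, also known as the laminin receptor, had -0.11, -0.16 and -0.08 in the authors' deposited table. Rps27a, which is made as a fusion with ubiquitin, had -0.10, -0.11 and -0.11 in the authors' deposited table.

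Rpl5 and Rpl11 bind MDM2 together with the 5S rRNA when ribosome assembly is disturbed. Rpl5 stood at -0.13, -0.20 and -0.15 and Rpl11 at -0.18, -0.24 and -0.03 in those 3 comparisons of the authors' deposited table. Cdkn1a, a p53 target, stood at -0.11, 0.01 and -0.23 there in the authors' deposited table, and Mdm2 at -0.17, 0.08 and 0.26, with no FDR p under 0.990.

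Among the large-subunit members, Rpl24, which reaches across to the small subunit, had -0.14, -0.19 and -0.08 in the authors' deposited table. Rpl18 stood at -0.19, -0.15 and -0.06, and Rpl35 at -0.33, -0.09 and -0.12 in the authors' deposited table. The stalk proteins recruit the translation factors to the ribosome. Rplp0 was listed at -0.15, -0.23 and -0.13, Rplp1 at -0.10, -0.14 and -0.05, and Rplp2 at -0.09, -0.12 and -0.07 in the authors' deposited table. The precisely measured Rpl21 and Rps28 stood at -0.13, -0.07 and -0.07 and at -0.09, -0.10 and -0.10 in the authors' deposited table. All of these are below 0 and all lie within 2 SE of it.

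In the wild types the members stood above or close to DMSO under the same agents. With dTAG-13 in WT-dTAG organoids, 75 of 79 members were above 0 at 6 h (median 0.07, 4.78%) and 77 of 79 at 24 h (median 0.12, 8.98%), against 49.9% and 51.7% of well measured genes. At 24 h the authors' deposited table had its highest members in Rps27 at 0.43 (p = 0.156), Rpl13a at 0.26 and Rps18 at 0.22, and its lowest in Rpl22l1 at -0.05, Rpl7a at -0.03 and Rpl27 at 0.00. At 6 h the highest in the authors' deposited table were Rps14 at 0.25, Rpl41 at 0.17 and Rps12 at 0.16, and the lowest were Rpl7l1 at -0.05, Rps28 at -0.02 and Rpl30 at -0.00. With 4-OHT in WT-cKO organoids the values were nearer to 0. There the median was -0.02 at 24 h with 61 of 79 below 0, against 54.3% of well measured genes, and 0.02 at 48 h with 57 of 79 above 0, against 47.3%. The members of the authors' deposited table ran from -0.12 (Rpl28) to 0.06 (Rps7) at 24 h and from -0.07 (Rpl9) to 0.16 (Rps27) at 48 h.

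The difference between an engineered line and its wild type was tested for every gene. No member passed an adjusted p of 0.05 in any of the 6 differences, and 0 of all 24905 genes did. At an unadjusted p under 0.05 the percentages of all genes were 1.13% and 1.32% for CDK2-dTAG minus WT-dTAG at 6 and 24 h, 1.06% and 2.05% for CDK5-dTAG minus WT-dTAG, and 1.78% and 1.27% for CDK2-cKO minus WT-cKO at 24 and 48 h. Rpl10, in CDK5-dTAG minus WT-dTAG at 24 h, was the only member among them.

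For CDK2-dTAG minus WT-dTAG the members' median difference was -0.08 at 6 h (68 of 79 below 0, against 52.4% of well measured genes) and -0.27 at 24 h (79 of 79, against 48.9%). The difference at 24 h combines -0.13 in CDK2-dTAG and 0.12 in WT-dTAG. Its lowest members were Rps27 at -0.67 (95% interval -1.51 to 0.16), Rpl35 at -0.51 (-1.05 to 0.02) and Rpl13a at -0.49, and every interval included 0. Its least negative were Rpl22l1 at -0.03, Rpl27 at -0.06 and Rpl7a at -0.08. For CDK2-cKO minus WT-cKO the median difference was -0.14 at 24 h (76 of 79 below 0, against 50.1%) and -0.11 at 48 h (78 of 79, against 51%). Rps14 at -0.36 (-1.41 to 0.68) and Rps7 at -0.35 (-1.04 to 0.34) were the lowest well measured members at 24 h, and Rps27 at -0.36 and Rps12 at -0.27 at 48 h.

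CDK5-dTAG organoids also stood lower. As in the CDK2 lines, the members' median was smaller in size than the median SE of a member. With dTAG-13 at 6 h, 78 of 79 members were below 0 (median -0.08, -5.13%), against 51.1% of well measured genes. Rpl9 at -0.19, Rps18 at -0.17 and Rps14 at -0.17 were the lowest in the authors' deposited table, and Rpl4 at 0.02 was the only one above 0. At 24 h, 65 of 79 were below 0 (median -0.09, -5.86%), against 53.2%, and the range was wider. In the authors' deposited table Rplp1 at -0.20, Rpl26 at -0.20 and Rpl37 at -0.19 were the lowest at 24 h, while Rps27 at 0.68, Rpl17 at 0.23 and Rps27l at 0.18 were the highest. For CDK5-dTAG minus WT-dTAG, the median difference was -0.14 at 6 h (79 of 79 below 0, against 50%) and -0.21 at 24 h (72 of 79, against 52.1%). This difference and that of CDK2-dTAG share the WT-dTAG libraries, so their likeness is not independent.

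**Figure D3:**
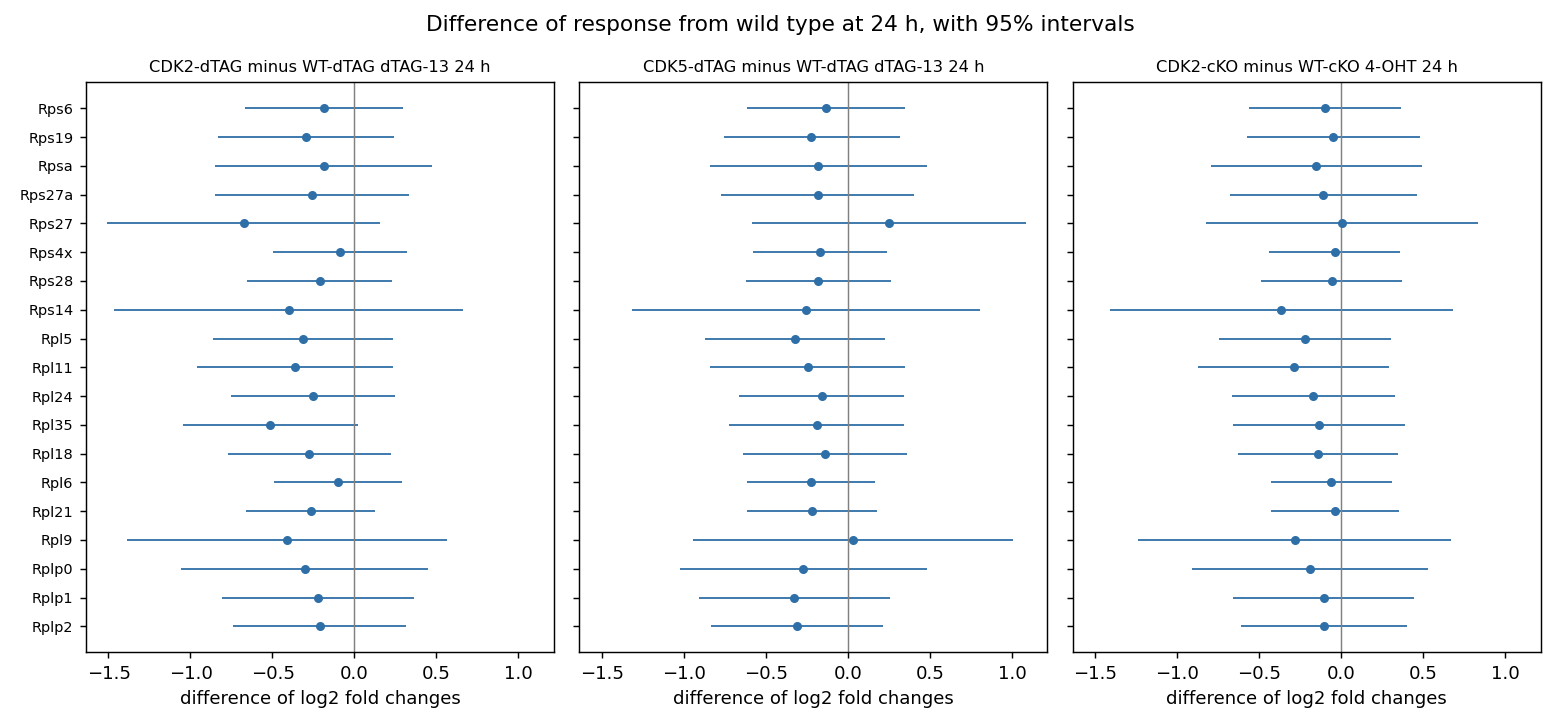
Difference of log2 fold changes from wild type at 24 h with 95% intervals for 19 ribosomal protein genes with fixed roles or extreme values: CDK2-dTAG minus WT-dTAG (left), CDK5-dTAG minus WT-dTAG (middle) and CDK2-cKO minus WT-cKO (right). Most points lie below 0 and every interval includes it, with Rpl35 in the left panel coming nearest to leaving it out (-1.05 to 0.02).

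Rps27 was the most variable of the well measured members. Beside 0.68 with dTAG-13 at 24 h in CDK5-dTAG (SE 0.301, 95% interval 0.09 to 1.27, p = 0.0243, FDR p = 1), the authors' deposited table gives 0.36 and -0.25 in CDK2-dTAG at 6 and 24 h and 0.04 and 0.43 in WT-dTAG. Between 24 and 6 h of DMSO in CDK2-dTAG it stood at 0.55 (SE 0.336, p = 0.0996) in the authors' deposited table. The retrotransposed copy Rps27rt is listed beside it, and reads of near-identical copies can be split between them by the quantification. Rps27rt stood at 0.10 in CDK5-dTAG at 24 h, 0.13 and -0.19 in CDK2-dTAG at 6 and 24 h, 0.03 in WT-dTAG at 24 h and 0.23 between the DMSO times in the authors' deposited table. The copy did not show the high values of Rps27.

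**Figure D4:**
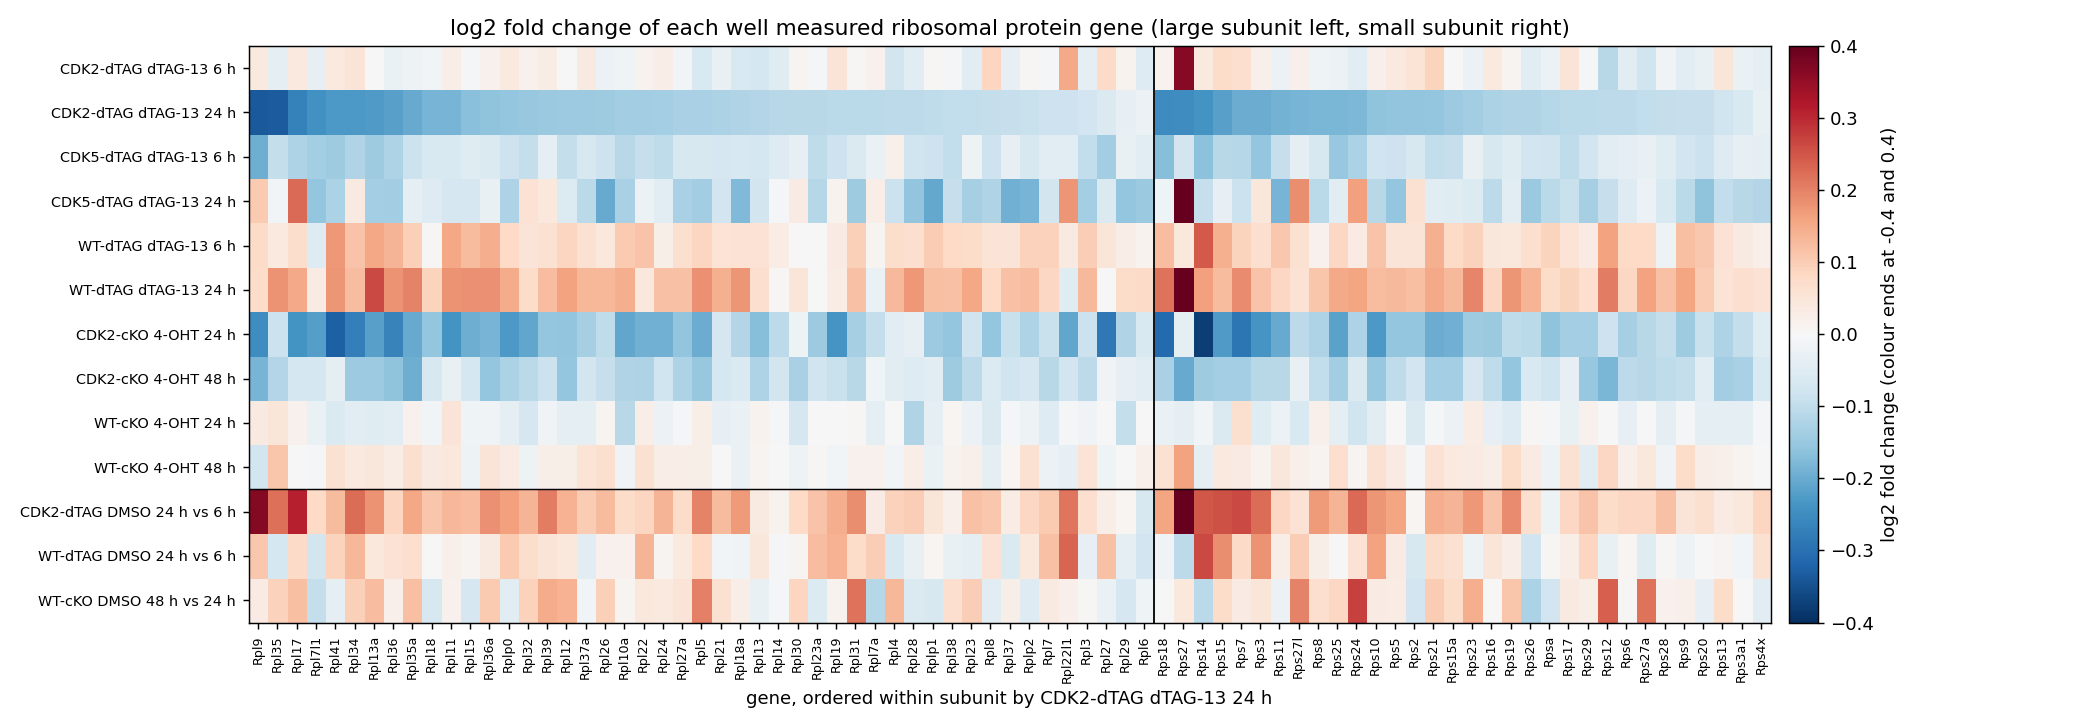
Log2 fold change of each of the 79 well measured ribosomal protein genes (columns, large subunit left of the line and small subunit right) in the 13 comparisons (rows), red above and blue below 0. The colour ends at -0.4 and 0.4, so Rps27 at 0.68, 0.55 and 0.43 is shown at the end of the scale. The rows for CDK2-dTAG at 24 h and CDK2-cKO are blue in every column.

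Of the 3 comparisons of DMSO times, 1 gave values of like size. In CDK2-dTAG organoids at 24 h against 6 h of DMSO, 77 of 79 members were above 0 (median 0.11, 8.22%), against 47.8% of well measured genes. This comparison and that of dTAG-13 at 24 h in CDK2-dTAG, with its median of -0.13, use the same DMSO libraries at 24 h, on opposite sides. The highest members between the DMSO times were Rps27 at 0.55, Rpl9 at 0.37 and Rpl17 at 0.31 in the authors' deposited table, and Rpl9 and Rpl17 were among the lowest with dTAG-13 at 24 h. The lowest were Rpl6 at -0.06, Rpsa at -0.02 and Rpl29 at 0.01 in the authors' deposited table. In WT-dTAG organoids the DMSO times differed by a median of 0.03, with 54 of 79 above 0 against 49.8%, and Rps14 at 0.27 was the highest and Rps27 at -0.11 the lowest in the authors' deposited table. In WT-cKO organoids at 48 h against 24 h the median was 0.03, with 53 of 79 above 0 against 48.8%. Rps24 at 0.27 (SE 0.206), Rps12 at 0.24 and Rpl31 at 0.22 were the highest and Rps26 at -0.13 the lowest in the authors' deposited table.

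Rpl10, a late-joining protein next to the catalytic centre, was not well measured, with a median SE of 0.570. It stood at 1.29 with dTAG-13 at 24 h in CDK2-dTAG (SE 0.577, p = 0.0249, FDR p = 0.996) in the authors' deposited table. It was listed in the authors' deposited table, at 6 and 24 h, with -0.60 and -0.86 in CDK5-dTAG and 0.89 and 0.82 in WT-dTAG. The processed copy Rpl10-ps3 had a median SE of 0.180 and values from -0.12 to 0.07 in the authors' deposited table, near those of the family. Whether reads of Rpl10 were assigned to the copy was not tested. Copies with values are listed for 9 members, 10 copies in all.

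Of the paralogs, Rpl22l1, Rpl7l1 and Rps27l were well measured. Rpl7l1, linked to ribosome assembly, stood at -0.24, -0.22 and -0.07 in CDK2-dTAG at 24 h and CDK2-cKO at 24 and 48 h in the authors' deposited table. Rps27l, a p53-responsive paralog of Rps27, stood at -0.19, -0.11 and -0.03, and Rpl22l1, the paralog of Rpl22, at -0.08, -0.21 and -0.08 in the authors' deposited table. Rpl39l and Rpl10l, known from the testis, and Rpl3l, known from heart and skeletal muscle, had median SEs of 2.79, 3.38 and 3.36. Rpl39l stood at 5.42 with 4-OHT at 24 h in WT-cKO (SE 1.72, 95% interval 2.05 to 8.80, p = 0.0016, FDR p = 0.506) in the authors' deposited table, and Rpl10l stood at 4.20 (SE 2.52) there. In 5 comparisons Rpl3l and Rpl10l held the same value to within 0.005, and 6496 to 7571 genes lay within 0.002 of that value. The p-value of Rpl3l was 0.976 or above in each of these 5.

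A set of 33 translation factors and other TOP genes lay nearer to 0 by its median, but was spread to both sides. In CDK2-dTAG at 24 h and CDK2-cKO at 24 and 48 h its medians were -0.06, -0.07 and -0.04, with 25, 24 and 22 below 0. The values ran from -0.19 to 0.27, from -0.30 to 0.22 and from -0.25 to 0.26. Some genes of the set were thus as low as the family, and others stood above 0. Median differences from wild type were -0.115, -0.060 and -0.053, with 25, 20 and 23 of 33 below 0. Eif3b at 0.19 (p = 0.258) and Naca at -0.18 (p = 0.325) had the smallest p-values of that set with dTAG-13 at 24 h in CDK2-dTAG in the authors' deposited table. None of these genes passed an FDR p of 0.05 in any comparison.

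Against DMSO, genes that make or regulate ribosomes did not share the sign. The 18 mTORC1 and TOP mRNA regulators had medians of 0.09, 0.03 and -0.03 in the same 3 comparisons, with 6, 7 and 9 below 0. The 24 genes of ribosome assembly and rRNA synthesis had medians of -0.02, -0.02 and 0.05, with 13, 13 and 5 below 0. The 9 dedicated chaperones and importins of ribosomal proteins had medians of 0.12, -0.07 and 0.06. Median differences from wild type were also taken for CDK2-dTAG at 24 h and CDK2-cKO at 24 and 48 h. In the assembly genes they were 0.02, -0.08 and -0.09, with 11, 15 and 16 of 24 below 0. In the chaperones and importins they were -0.03, -0.15 and 0.00, with 5, 8 and 4 of 9 below 0. In the regulators they were 0.06, 0.04 and 0.02, with 7 of 18 below 0 in each. With 4-OHT at 48 h in CDK2-cKO, Myc stood at 0.80 (p = 0.0117) and Eif4ebp1, a repressor of cap-dependent translation, at -0.41 (p = 0.0235) in the authors' deposited table. In WT-cKO under the same agent and time Eif4ebp1 was also lower (-19.7%, against -24.9% in CDK2-cKO). Myc stood there at -18.9%, against 73.9% in CDK2-cKO. With dTAG-13 at 6 and 24 h in CDK5-dTAG, Myc was above DMSO too (48.7% and 59.9%). Neither gene passed an FDR p of 0.05, and none of the genes in these 3 lists did in any comparison.

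Other families of nuclear genes also lay below 0 in these comparisons. The 72 well measured nuclear-encoded subunits of the respiratory chain had medians of -0.14, -0.21 and -0.17 in CDK2-dTAG at 24 h and CDK2-cKO at 24 and 48 h, with 72, 71 and 71 below 0, and 0.10 with dTAG-13 at 24 h in WT-dTAG, with 68 above 0. The 78 mitochondrial ribosomal proteins had medians of -0.13, -0.18 and -0.07, with 63, 73 and 61 below 0, and 0.07 with dTAG-13 at 24 h in WT-dTAG. With 4-OHT at 48 h in WT-cKO they parted from the cytosolic ribosomal proteins. There the respiratory chain had a median of -0.09 with 66 of 72 below 0 and the mitochondrial ribosomal proteins one of -0.07, against 0.02 in the 79 members. The 13 mRNAs encoded in mitochondria had medians of -0.02, 0.02 and 0.11. Between 24 and 6 h of DMSO their medians were 0.74 in CDK2-dTAG and 0.65 in WT-dTAG, where 4 and 3 of the 13 passed an FDR p of 0.05. Values below 0 in most members were thus also found outside the cytosolic ribosome in the CDK2 lines.

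The members' transcripts are short. They had a median transcript length of 886 nt (GENCODE M21, the longest principal transcript), against 2960 nt for other well measured genes, and 67 of 79 were at most 1500 nt long. Other genes were ordered by length in the same comparisons. With dTAG-13 at 24 h in CDK2-dTAG their medians were -0.14 up to 600 nt, -0.10 over 600 and up to 1000 nt, -0.01 over 2000 and up to 3000 nt and 0.13 over 5000 nt. With 4-OHT at 24 h in CDK2-cKO the medians of the same classes were -0.16, -0.17, -0.04 and 0.12. The members did not follow that trend among themselves: with dTAG-13 at 24 h in CDK2-dTAG their own medians were -0.14, -0.14, -0.12 and -0.15 in the 4 classes from the shortest to 2000 nt. Once each gene was set against the other genes of its length class, the members' median was -0.04 with dTAG-13 at 24 h in CDK2-dTAG, -0.00 and -0.04 with 4-OHT at 24 and 48 h in CDK2-cKO, and 0.06 with dTAG-13 at 24 h in WT-dTAG. The part of transcript length in the members' values was not tested beyond this comparison.

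**Figure D5:**
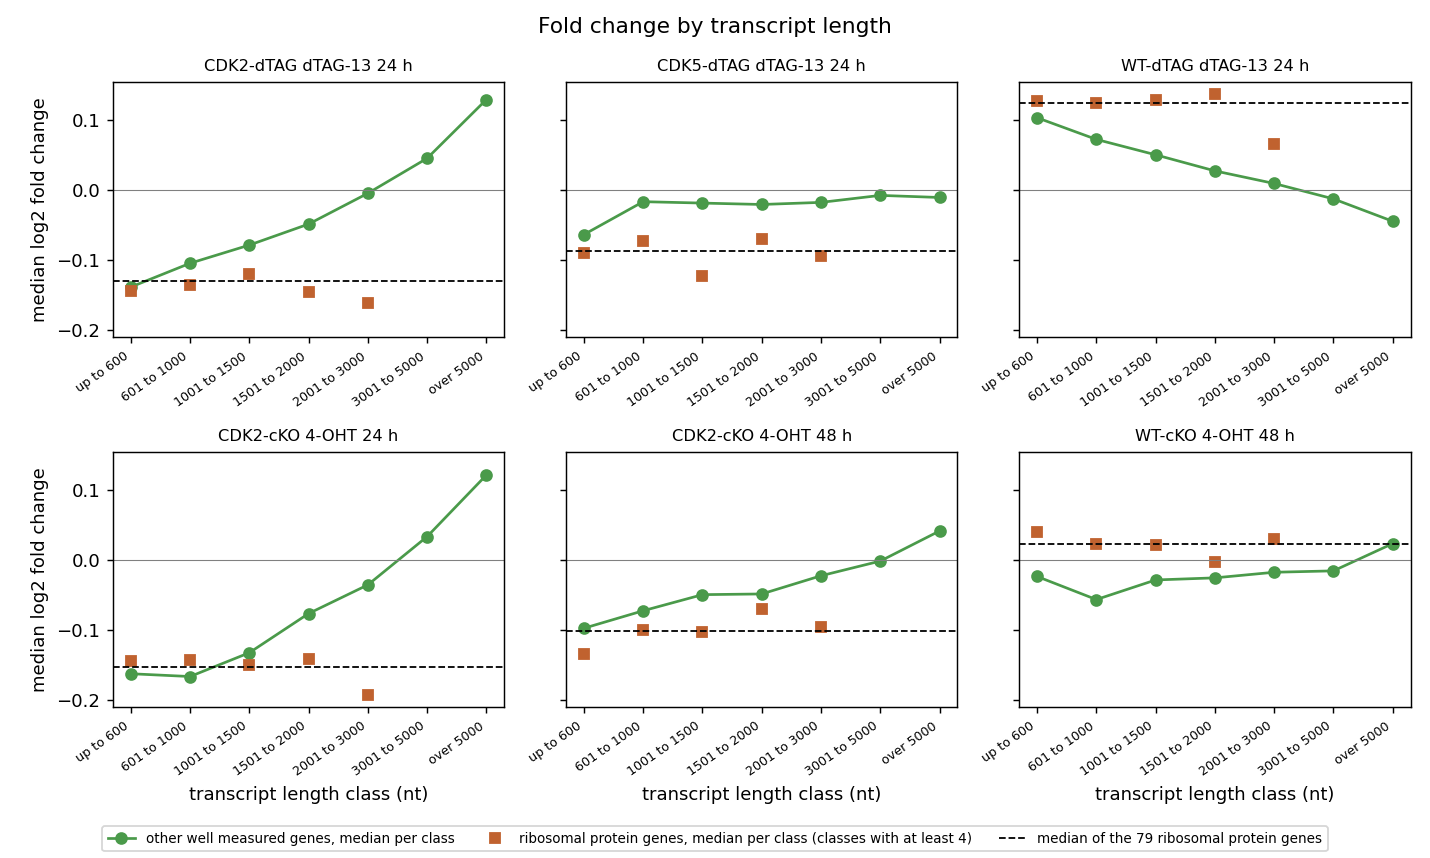
Median log2 fold change of other well measured genes (green circles) and of ribosomal protein genes (orange squares, classes with at least 4 members) by transcript length class in nt, in 6 comparisons, with the median of the 79 members as a dashed line. In CDK2-dTAG at 24 h other genes up to 600 nt reach the members' level (-0.14), in CDK2-cKO at 24 h those up to 1000 nt do, and in CDK5-dTAG at 24 h and WT-cKO at 48 h no class does below 5000 nt.

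Against their length class, the members' median was -0.05 with dTAG-13 at 24 h in CDK5-dTAG and 0.06 with 4-OHT at 48 h in WT-cKO. For DMSO 24 h against 6 h in WT-dTAG, that value was -0.05. These are about as far from 0 as -0.04 in CDK2-dTAG and 0.06 in WT-dTAG with dTAG-13 at 24 h. With dTAG-13 at 24 h in CDK5-dTAG the members' own median was -0.09, against -0.06 for other genes up to 600 nt and -0.02 over 600 and up to 1000 nt. With 4-OHT at 48 h in WT-cKO it was 0.02, against -0.02 and -0.06. For DMSO 24 h against 6 h in WT-dTAG it was 0.03, against 0.10 and 0.09, so that the members lay below other short transcripts there. These distances are smaller than the median SE of a member, and no test of them was made.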

How the data were processed

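RNA of 60 duodenum organoid samples, in 20 groups of 3 by the labels, was sequenced with a QuantSeq forward kit, and per the submitters' processing notes it was quantified with Salmon (version not given). No source used here names the genome build, the annotation, the normalization, any filter or the statistical test. Per the file headers, the authors' deposited table gives every comparison of a gene 5 columns: its log2 fold change, the linear fold as a ratio, and the p-value raw, as FDR and after Bonferroni. It was checked that the fold equals 2 to the power of the log2 value and that the FDR p-value is a Benjamini-Hochberg adjustment.

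The implied standard error (SE) is the size of the log2 fold change over the normal quantile that its p-value (two-sided) corresponds to, which assumes a Wald-type test, and intervals are 95% normal intervals. Differences from wild type are differences of log2 fold changes with SEs combined as independent, normal p-values and a Benjamini-Hochberg adjustment over 24905 genes. The calculation of the differences was tried on simulated normal values drawn independently with the implied SEs. Such values cannot check the Wald-type assumption or that of independence. Members, gene lists, the SE limit of 0.5 and the tests were chosen with earlier results of these data known. Genes are named where they are called, are the 3 highest or lowest well measured members of a comparison, are the 2 most precise of a subunit, have a role named beforehand (such as Rps6, Rpl5 or the paralogs), or have the 2 smallest p-values of another list. Rps7 and Rps12 in the differences, Rps27rt, Rpl10-ps3, Cdkn1a and Mdm2 are named beside these, and Rps27 was singled out after its values were seen. Lengths are from GENCODE M21 by symbol (99% of well measured genes), promoters from RefSeq (GRCm38.p6). Python 3.11.15, pandas 2.3.3, numpy 2.4.6 and scipy 1.17.1 were used. A further list of ribosome genes outside the name rule is not reported here.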

Additional observations from a re-analysis of the deposited data

How the results depend on the processing

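No paired analysis was possible because the table holds comparisons without values per sample, and for the same reason no replicate could be left out and no depth is known. Of 141 alternative values, 133 moved by less than the spread over members or kept their count of calls. Of these, 2 medians near 0 changed sign: 0.009 against -0.001 with dTAG-13 at 6 h in CDK2-dTAG when centred on all well measured genes, and 0.009 against -0.022 with 4-OHT at 24 h in WT-cKO when centred on the length class. All 38 counts of calls under an alternative were 0. The alternatives were Bonferroni p-values, adjustment over well measured genes alone, and differences centred on all well measured genes. The 13 counts with Bonferroni p-values could only be 0, since these are stricter than the FDR p-values, so they add nothing. The other 8 of the 141 values all came from setting each gene against the other genes of its transcript length class, an alternative chosen after the data were seen. Under it the members' median was -0.042 with dTAG-13 at 24 h in CDK2-dTAG, -0.036 with dTAG-13 at 6 h in CDK5-dTAG, -0.003 and -0.037 with 4-OHT at 24 and 48 h in CDK2-cKO, and -0.050 for DMSO 24 h against 6 h in WT-dTAG, where the sign was reversed. The median difference from wild type was -0.103 for CDK2-dTAG at 24 h, -0.057 for CDK5-dTAG at 6 h and -0.009 for CDK2-cKO at 24 h. The differences not counted among the 8 were -0.125 for CDK5-dTAG at 24 h (-0.209 before) and -0.092 for CDK2-cKO at 48 h (-0.110 before). For CDK2-dTAG at 6 h it was -0.034 (-0.079 before). Medians that moved by less than the spread over members could still shrink under the length class. In WT-dTAG with dTAG-13 they fell from 0.067 to 0.023 at 6 h and from 0.124 to 0.060 at 24 h. For DMSO 24 h against 6 h in CDK2-dTAG the median fell from 0.114 to 0.045. With 4-OHT at 48 h in WT-cKO it rose from 0.023 to 0.056. The alternative takes out what short transcripts share, whatever its origin.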
